A study of Mus musculus with 6 samples.

Results

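The glucocorticoid receptor gene *Nr3c1* and 9 genes that the receptor is known to induce in muscle or other tissues (*Fkbp5*, *Tsc22d3*, *Zbtb16*, *Klf9*, *Klf15*, *Mt1*, *Mt2*, *Cdkn1a* and *Glul*) were described in skeletal muscle with and without Baf155. They were taken by gene symbol from the deposited table, which listed 20632 genes. All 10 were found, and all 10 were among the 12116 genes that had enough reads to be tested. The study sequenced total RNA from the pooled hind limb muscles of each mouse (quadriceps, gastrocnemius, soleus, tibialis anterior and extensor digitorum longus) in unexercised male C57BL/6 mice aged 3 months to look for transcripts that differ when muscle fibers lose Baf155, a core subunit of the SWI/SNF chromatin remodeling complex. Baf155 WT mice (n = 3) carried floxed *Baf155* alleles and no Cre. Baf155 ΔMF mice (n = 3) carried the same floxed alleles and the *MCK*-Cre transgene, whose muscle creatine kinase promoter is active in skeletal and cardiac muscle fibers and not in the other cells of a muscle. Each library came from 1 mouse.

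The glucocorticoid receptor is a nuclear receptor that waits in the cytoplasm in a complex with HSP90 chaperones and FK506-binding proteins. When it binds corticosterone, the main glucocorticoid of mice, it enters the nucleus, binds glucocorticoid response elements in DNA and recruits coactivators, and SWI/SNF complexes are among its known partners at chromatin. In skeletal muscle, glucocorticoids are known for promoting protein breakdown and the use of amino acids as fuel, and the transcripts of the direct targets follow the hormone level closely.

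Libraries held between 8426022 and 12469335 estimated counts, and levels are given as CPM, counts of a gene scaled to a common library size by the TMM method. *Smarcc1*, which encodes Baf155, was measured first as a check of the labels. Its level was 23.4, 19.5 and 17.0 CPM in the Baf155 WT mice and 7.05, 6.54 and 7.72 CPM in the Baf155 ΔMF mice, so the genotypes did not overlap. The log2 fold change, Baf155 ΔMF over Baf155 WT, was -1.49 (SE 0.15, adjusted p = 0.00907, edgeR quasi-likelihood test with Benjamini-Hochberg adjustment over all genes tested). Its adjusted p was 0.0616, 0.0533 and 0.0678 without MS15-2, MS13-1 and MS13-2, with log2 fold changes of -1.50, -1.48 and -1.43. Sample titles begin with MS13 (1 Baf155 WT mouse, MS13-3, and 2 Baf155 ΔMF mice, MS13-1 and MS13-2), MS14 (1 Baf155 ΔMF mouse, MS14-2) or MS15 (2 Baf155 WT mice, MS15-2 and MS15-3), and the labels do not say what the prefix stands for. Among the 3 mice with MS14 or MS15, genotype and prefix cannot be told apart. The first principal component, with 43.3% of the variance, set both MS15 mice (25.0 and 22.5) apart from the other 4 mice (-17.1 to -1.56), including the Baf155 WT mouse MS13-3 (-13.4). Values are therefore given in the order MS13-3, MS15-2 and MS15-3 for Baf155 WT, and MS13-1, MS13-2 and MS14-2 for Baf155 ΔMF, and log2 fold changes without the MS15 mice or among the MS13 mice alone (1 mouse against 2, no test) are given beside those of all mice where they differ most.

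The receptor transcript and 4 targets (*Fkbp5*, *Zbtb16*, *Klf9* and *Klf15*) had log2 fold changes from 0.02 to 0.08. Scaled by library size only, *Nr3c1*, *Klf9* and *Klf15* lay just below 0, at -0.016, -0.0074 and -0.039. The other 5 targets, *Tsc22d3*, *Mt1*, *Mt2*, *Cdkn1a* and *Glul*, had lower means in Baf155 ΔMF muscle, with log2 fold changes from -0.90 to -0.23. This split is by the measured values and is a description only. None of the 10 genes had an adjusted p under 0.05, a limit that 0.0248% of all genes tested passed with edgeR, and DESeq2 and limma-voom also called 0 of the 10. At an unadjusted p under 0.05, 2 of the 10 were past the limit with edgeR (*Mt1* and *Glul*), beside 7.95% of all genes tested. With DESeq2 it was 2 (*Tsc22d3* and *Glul*), beside 605 of 12116 genes tested. With limma-voom it was 2 (*Mt1* and *Glul*), beside 940 of 12116 genes tested. In 0 of the 10 genes were the genotypes separated without overlap, a pattern seen in 10.8% of all genes tested. The 5 genes with a log2 fold change below 0 stand beside 50.2% of all genes tested, and the median over the 10 genes was -0.11 beside -0.00 for all genes. In whole muscle, fewer cells of a type and less RNA per cell cannot be told apart, so each level is the sum over fibers and the other cells of the tissue.

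**Figure D1:**
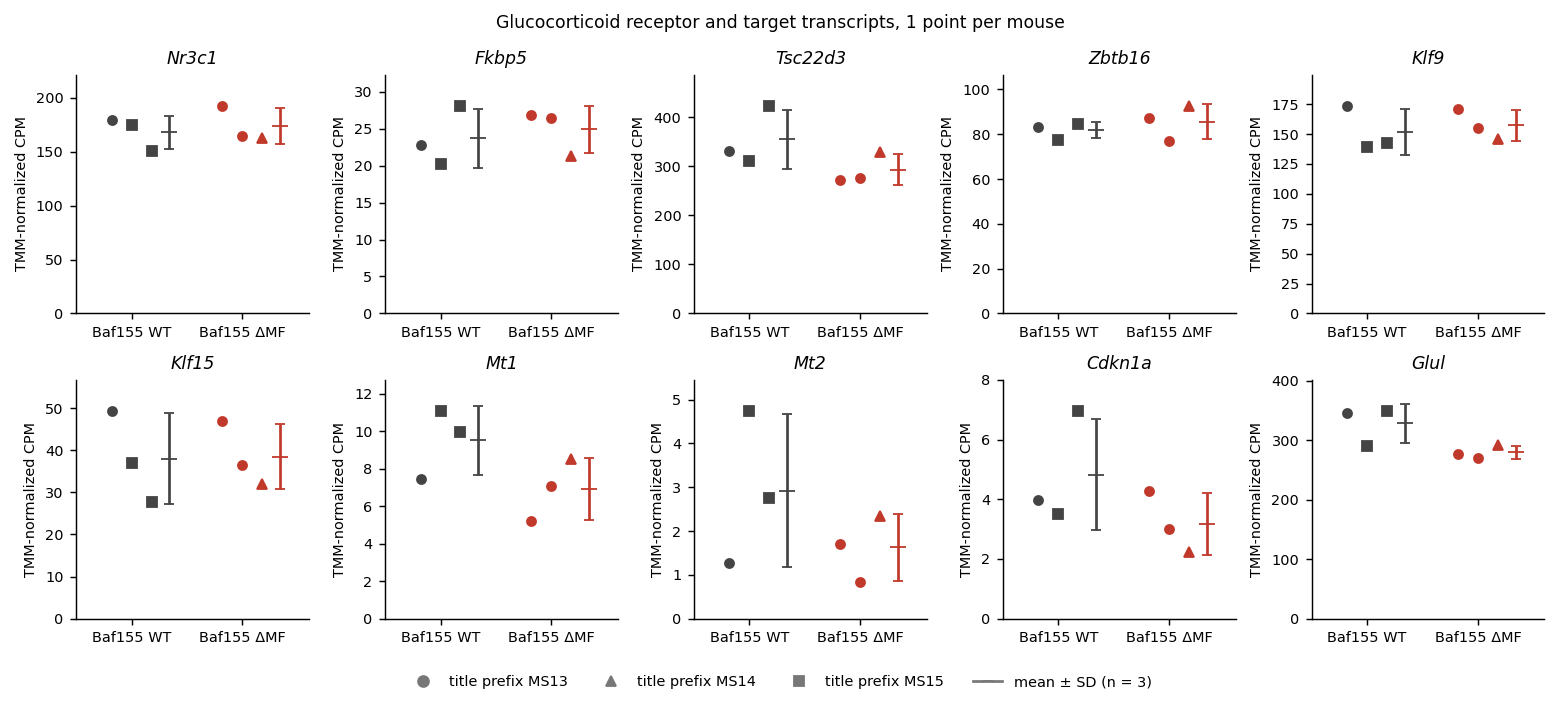
TMM-normalized CPM of *Nr3c1* and 9 glucocorticoid-induced transcripts in each of the 6 mice, by genotype. Symbols give the prefix of the sample title, and bars give the mean ± SD of 3 mice. The genotypes overlap in every panel, and in *Glul* the overlap is between 290.0 and 291.5 CPM.

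Per kilobase of exon, the 10 transcripts spanned a wide range of levels in Baf155 WT muscle. *Glul* was the highest at 98.7 ± 9.93 CPM per kb (SD, n = 3) and *Tsc22d3* was next at 81.8 ± 13.8 CPM per kb, values whose spreads overlap. *Klf9* (31.5 ± 3.98 CPM per kb), *Nr3c1* (21.9 ± 2.01 CPM per kb), *Zbtb16* (15.5 ± 0.697 CPM per kb) and *Klf15* (13.6 ± 3.88 CPM per kb) followed, the last pair with overlapping spreads. *Mt1* (7.64 ± 1.49 CPM per kb), *Mt2* (4.97 ± 2.97 CPM per kb), *Fkbp5* (2.50 ± 0.427 CPM per kb) and *Cdkn1a* (1.36 ± 0.525 CPM per kb) were the lowest, and the spread of *Mt2* overlapped those of *Mt1* and *Fkbp5*. In Baf155 ΔMF muscle, the order ran from *Glul* at 84.1 to *Cdkn1a* at 0.892 CPM per kb and was the same. The length used was the union of exons over all annotated transcripts of a gene. For *Mt1* it was 1246 bases, which is its whole locus, and for *Fkbp5* it was 9468 bases from 15 transcripts. The order thus depends in part on this choice of length.

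*Nr3c1* (GRCm38 chr18:39410545-39519421, minus strand) encodes the receptor itself. Its level was 179, 175 and 151 CPM in the Baf155 WT mice and 193, 165 and 163 CPM in the Baf155 ΔMF mice. The highest value belonged to a Baf155 ΔMF mouse and the lowest to a Baf155 WT mouse, and the genotypes overlapped over most of their range. The means were 168 ± 15.5 and 174 ± 16.6 CPM (SD, n = 3 each), a log2 fold change of 0.05 (SE 0.11, 95% interval -0.19 to 0.28, adjusted p = 0.907). A difference in receptor transcript was thus not detectable with 3 mice per genotype, and the interval gives the sizes that these data allow.

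*Fkbp5* (chr17:28399094-28517527, minus strand) encodes FKBP51, an HSP90 co-chaperone that lowers the hormone affinity of the receptor and closes a negative feedback loop. It is among the most responsive receptor targets in many tissues. Its level was 22.7, 20.2 and 28.1 CPM in the Baf155 WT mice and 26.9, 26.5 and 21.3 CPM in the Baf155 ΔMF mice. The highest and the lowest mouse were both Baf155 WT, so the Baf155 ΔMF values lay inside the Baf155 WT range. This gave a log2 fold change of 0.08 (SE 0.14, 95% interval -0.24 to 0.39, adjusted p = 0.888).

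*Tsc22d3* (chrX:140539528-140600659, minus strand) encodes GILZ, a leucine zipper protein that carries part of the anti-inflammatory action of glucocorticoids. Its level was 332, 310 and 423 CPM in the Baf155 WT mice and 272, 277 and 329 CPM in the Baf155 ΔMF mice. The 2 lowest values belonged to the Baf155 ΔMF mice with the prefix MS13, and MS14-2 lay between MS15-2 and MS13-3. The mean was 17.6% lower in Baf155 ΔMF mice, with a log2 fold change of -0.28 (SE 0.13, 95% interval -0.57 to 0.01, unadjusted p = 0.0542, adjusted p = 0.622). It was -0.27 among the MS13 mice alone. The estimate lay between -0.37 and -0.13 in 17 alternative analyses and was below 0 in all 17.

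*Zbtb16*, *Klf9* and *Klf15* encode zinc finger transcription factors. *Zbtb16* (chr9:48654297-48836222, minus strand) encodes PLZF, a BTB-domain repressor. Its level was 83.4, 77.6 and 84.4 CPM in the Baf155 WT mice and 87.0, 77.0 and 92.7 CPM in the Baf155 ΔMF mice, with the smallest ratio of highest to lowest Baf155 WT value of the 10 transcripts (1.09). Both the highest and the lowest mouse were Baf155 ΔMF, and the log2 fold change was 0.07 (SE 0.09, 95% interval -0.14 to 0.27, adjusted p = 0.849). It was the one gene of the 10 with estimates that were not whole numbers, in 4 of 6 mice.

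*Klf9* (chr19:23141226-23168134, plus strand) encodes a Krüppel-like factor whose transcript is induced quickly by glucocorticoids. Its level was 174, 139 and 143 CPM in the Baf155 WT mice and 171, 155 and 145 CPM in the Baf155 ΔMF mice. The highest value (MS13-3) and the 2 lowest (MS15-2 and MS15-3) were Baf155 WT, so all Baf155 ΔMF mice lay between them. This gave a log2 fold change of 0.05 (SE 0.11, 95% interval -0.19 to 0.29, adjusted p = 0.902).

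*Klf15* (chr6:90462576-90475238, plus strand) encodes a Krüppel-like factor that is induced by the receptor in muscle and activates genes of branched-chain amino acid breakdown. Its level was 49.4, 37.0 and 27.8 CPM in the Baf155 WT mice and 47.0, 36.4 and 31.9 CPM in the Baf155 ΔMF mice. The highest Baf155 WT value was 1.78 times the lowest, and the Baf155 ΔMF values lay inside that range. The means differed by a log2 fold change of 0.02 (SE 0.19, 95% interval -0.41 to 0.45, adjusted p = 0.980). It was -0.36 without the MS15 mice (unadjusted p = 0.0496, adjusted p = 0.999, edgeR) and 0.25 without MS13-3, so the sign of this small difference depended on which Baf155 WT mice were used.

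**Figure D2:**
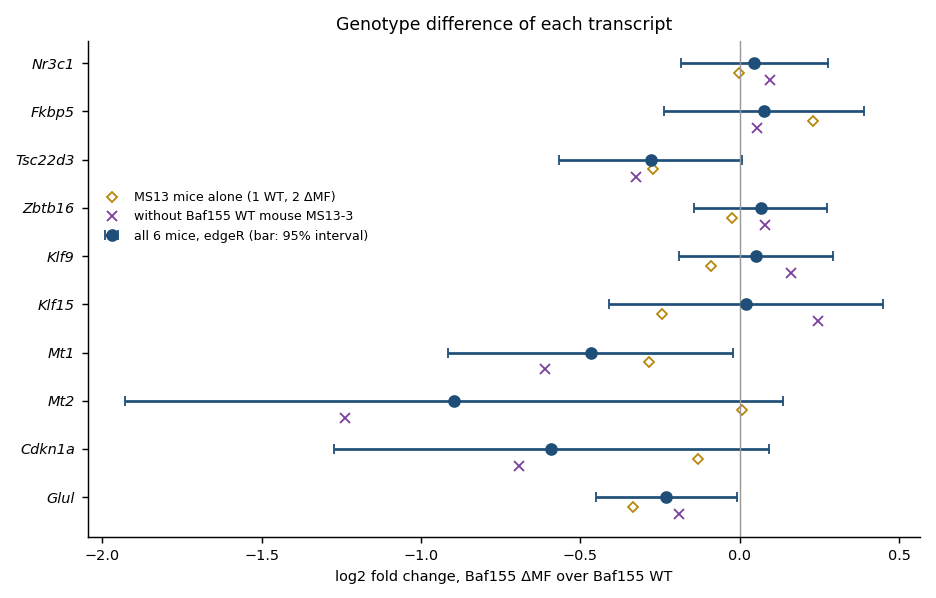
Log2 fold change of the 10 transcripts, Baf155 ΔMF over Baf155 WT, from edgeR with its 95% interval (filled circles), among the MS13 mice alone (diamonds, 1 mouse against 2) and without the Baf155 WT mouse MS13-3 (crosses). *Mt1* and *Glul* have intervals that end below 0, and the *Mt2* estimates run from -1.24 to 0.01 with the choice of mice.

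*Mt1* and *Mt2* encode metallothioneins, small cysteine-rich proteins that bind zinc and copper, and both glucocorticoids and metals are known to induce them. The genes are neighbors on chromosome 8, *Mt2* at chr8:94172664-94173568 and *Mt1* at chr8:94179082-94180327, both on the plus strand, and an antisense gene (Gm45774) overlaps *Mt2*. Whether the counting used strand is not given in the sources used here, so reads from *Mt2* and from its antisense partner cannot be told apart. The same limit holds for *Fkbp5*, *Cdkn1a*, *Glul* and *Smarcc1*, which genes on the opposite strand also overlap. These include the protein-coding *Teddm2* for *Glul* and *Dhx30* for *Smarcc1*. Their RefSeq promoters (GRCm38.p6, plus strand) are shown because *Mt2* had the largest difference between genotypes of the 10 transcripts and because the pair has a second known regulator, the metal-responsive factor MTF1. Each sequence runs from 250 bases before the RefSeq start to 30 bases after it, chr8:94178839-94179118 for *Mt1* and chr8:94172368-94172647 for *Mt2*, with the metal response core (TGCACNC or TGCGCNC on either strand) in capitals.
Mt1: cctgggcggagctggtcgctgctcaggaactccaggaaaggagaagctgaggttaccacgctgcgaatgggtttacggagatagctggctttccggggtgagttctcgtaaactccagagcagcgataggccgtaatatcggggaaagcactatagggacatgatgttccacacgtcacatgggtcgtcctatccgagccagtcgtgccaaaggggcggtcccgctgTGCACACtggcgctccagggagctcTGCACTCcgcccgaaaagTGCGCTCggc
Mt2: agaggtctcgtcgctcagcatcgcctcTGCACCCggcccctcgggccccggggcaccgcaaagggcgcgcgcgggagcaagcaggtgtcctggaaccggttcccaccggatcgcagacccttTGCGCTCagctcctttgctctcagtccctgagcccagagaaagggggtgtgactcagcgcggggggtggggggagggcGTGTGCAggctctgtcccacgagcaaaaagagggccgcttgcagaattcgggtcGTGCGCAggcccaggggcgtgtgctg

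The *Mt1* promoter held 3 metal response cores, the nearest upstream one at -23 to -17 from the RefSeq start, and the *Mt2* promoter held 4, from -223 to 11. At least 1 core was found in 25.7% of all 32851 mouse promoters of 300 bases, and 3 or more in 1.97%. The *Klf15* and *Glul* promoters held 1 core each. The short glucocorticoid receptor motif AGAACA, searched on both strands, was in 1 of 3 *Tsc22d3* promoters, at -185 to -180. No other promoter of the 8 genes searched held it, while 19% of all promoters did. The full glucocorticoid response element was searched only as AGAACA, 3 bases of any kind and the reverse complement of AGAACA, with no mismatch allowed. In this exact form it was in none of these genes' promoters and in 0.00913% of all promoters. Elements with other letters or outside these windows were not searched. A match describes the letters in these windows only, and it does not mark a bound site.

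*Mt1* was measured at 7.48, 11.1 and 9.99 CPM in the Baf155 WT mice and at 5.23, 7.06 and 8.54 CPM in the Baf155 ΔMF mice, from 49 to 145 counts per mouse. The 2 highest mice were the MS15 mice, and MS14-2 was above the Baf155 WT mouse MS13-3, where the genotypes overlapped. The means were 9.52 ± 1.85 and 6.94 ± 1.66 CPM (SD, n = 3 each), 27.7% lower in Baf155 ΔMF muscle. The log2 fold change was -0.47 (SE 0.20, 95% interval -0.91 to -0.02), with an unadjusted p of 0.0413 and an adjusted p of 0.611 (edgeR). Without the MS15 mice it was -0.12, and among the MS13 mice alone it was -0.28.

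*Mt2* was measured at 1.26, 4.74 and 2.77 CPM in the Baf155 WT mice and at 1.71, 0.831 and 2.34 CPM in the Baf155 ΔMF mice. These levels rest on 8 to 62 counts per mouse. The highest Baf155 WT value was 3.76 times the lowest, and the Baf155 WT mouse MS13-3 was below 2 of the Baf155 ΔMF mice. The means differed by a log2 fold change of -0.90 (SE 0.47, 95% interval -1.93 to 0.14, adjusted p = 0.627). It was -1.24 without MS13-3 (adjusted p = 0.0451, edgeR), 0.01 among the MS13 mice alone and 0.34 without the MS15 mice. The direction for *Mt2* thus rested on the MS15 mice.

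*Cdkn1a* (chr17:29090976-29100727, plus strand) encodes p21, an inhibitor of cyclin-dependent kinases that is a target of both the receptor and p53. Its level was 3.98, 3.52 and 6.96 CPM in the Baf155 WT mice and 4.27, 3.01 and 2.22 CPM in the Baf155 ΔMF mice, from 19 to 78 counts per mouse. MS15-3 was the highest mouse, and the other 2 Baf155 WT mice lay within the Baf155 ΔMF range. The log2 fold change was -0.59 (SE 0.31, 95% interval -1.27 to 0.09, adjusted p = 0.627). It was -0.13 among the MS13 mice alone and -0.23 without MS15-3.

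*Glul* (chr1:153899944-153909723, plus strand) encodes glutamine synthetase, which makes glutamine from glutamate and ammonia and lets muscle export amino acid nitrogen. Its level was 345, 290.0 and 349 CPM in the Baf155 WT mice and 277, 270 and 291.5 CPM in the Baf155 ΔMF mice. The genotypes overlapped by the values of MS15-2 and MS14-2 alone, which lay 0.534% apart. The means were 328 ± 33.0 and 280 ± 11.0 CPM (SD, n = 3 each), 14.7% lower in Baf155 ΔMF muscle. The log2 fold change was -0.23 (SE 0.10, 95% interval -0.45 to -0.01), with an unadjusted p of 0.0430 and an adjusted p of 0.616 (edgeR). It was -0.33 among the MS13 mice alone and lay between -0.33 and -0.18 in 17 alternative analyses, 13 of which had an unadjusted p under 0.05. Of the 10 transcripts, *Glul* was past this unadjusted limit in the most alternatives, and its adjusted p was not under 0.05 in any.

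Two-sided exact permutation tests of the mean log2 CPM of each transcript (prior count 2) gave p-values from 0.2 (*Tsc22d3*, *Mt1* and *Glul*) to 1 (*Klf15*). With 3 mice against 3 such a test cannot give less than 0.1. In all 5 targets with lower means (*Tsc22d3*, *Mt1*, *Mt2*, *Cdkn1a* and *Glul*), MS15-3 ranked 1 or 2 of the 6 mice and MS13-2 ranked 5 or 6, while the ranks of the other 4 mice varied between these genes. These 5 were grouped by their lower Baf155 ΔMF means, which in part sets such ranks in advance. Over all 10 transcripts, the Baf155 WT mouse MS15-3 was the highest of all 6 mice in *Fkbp5*, *Tsc22d3*, *Cdkn1a* and *Glul* and the lowest in *Nr3c1* and *Klf15*. MS15-2 was the highest in *Mt1* and *Mt2* and the lowest in *Fkbp5* and *Klf9*. MS13-3 was the highest in *Klf9* and *Klf15*. Among the Baf155 ΔMF mice, MS13-1 was the highest in *Nr3c1* and the lowest in *Tsc22d3* and *Mt1*, MS13-2 was the lowest in *Zbtb16*, *Mt2* and *Glul*, and MS14-2 was the highest in *Zbtb16* and the lowest in *Cdkn1a*. *Klf9* and *Klf15* were both highest in MS13-3 and next in MS13-1, and *Mt1* and *Mt2* were both highest in MS15-2 and next in MS15-3.

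**Figure D3:**
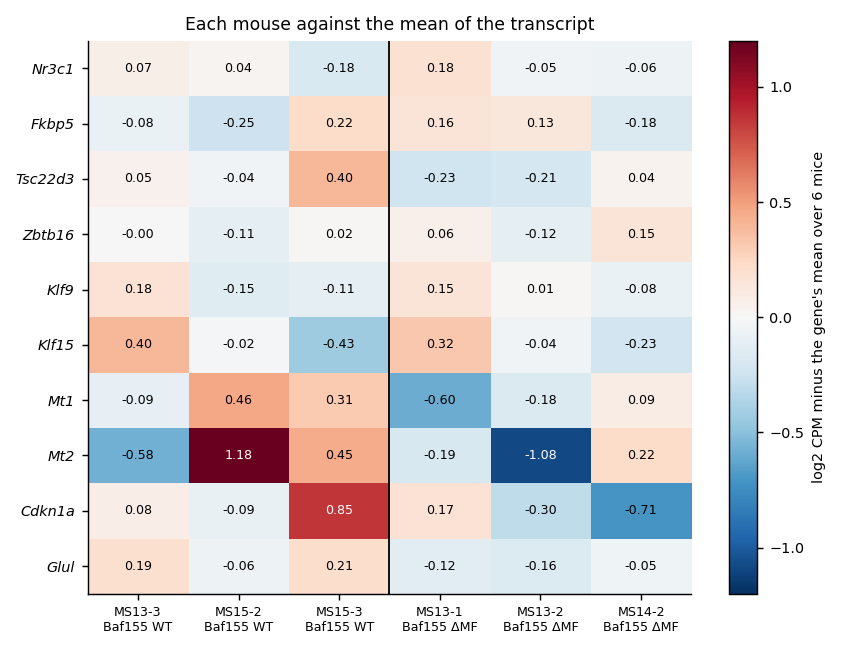
Log2 CPM of each transcript in each mouse minus its mean over the 6 mice, with Baf155 WT mice to the left of the line. No column has a single color from top to bottom: MS15-3 runs from -0.43 for *Klf15* to 0.85 for *Cdkn1a*, and MS13-1 from -0.60 for *Mt1* to 0.32 for *Klf15*.

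The mean centered profile of the 9 targets gave a reference for how far each lay from it. This distance grows with the spread of a transcript over the mice, so it does not measure likeness of pattern alone. Centered values ran from -0.12 to 0.15 for *Zbtb16*, highest in MS14-2 where the mean profile was -0.08, and from -1.08 to 1.18 for *Mt2*. The root mean square difference from it over the 6 mice was 0.11 (log2) for *Glul*, 0.14 for *Tsc22d3* and 0.16 for *Zbtb16*, and it was 0.35 for *Klf15*, 0.39 for *Cdkn1a* and 0.64 for *Mt2*. These targets are part of the mean they are compared with. The receptor transcript, which is not part of it, was at 0.20. The 3 other genes nearest to this mean profile were *Sae1* (0.03), *Phf5a* (0.03) and *Fn3krp* (0.04), with log2 fold changes of -0.20, -0.22 and -0.21, none of them past the adjusted limit.

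Receptor availability also depends on hormone conversion, chaperones and coregulators, and 16 of 17 genes of that list were tested. At an adjusted p under 0.05, 0 of the 16 passed, and at an unadjusted p under 0.05, 2 were lower (*Hsp90aa1* and *Hsd11b1*) and 1 was higher (*Ncor1*) in Baf155 ΔMF muscle, beside 4.6% and 3.35% of all genes tested. *Hsp90aa1*, the inducible HSP90 that holds the receptor ready for hormone, was at 99.1, 93.7 and 127 CPM in the Baf155 WT mice and at 70.3, 90.9 and 80.3 CPM in the Baf155 ΔMF mice. These ranges did not overlap, as in 5.57% of all genes tested in this direction, and the log2 fold change was -0.40 (SE 0.13, adjusted p = 0.601). The constitutive *Hsp90ab1*, at a log2 fold change of -0.13 (-0.04 among the MS13 mice), did not overlap between genotypes either. *Hsd11b1* encodes the enzyme that regenerates active glucocorticoid inside cells and was at 12.6, 27.1 and 22.2 CPM in the Baf155 WT mice and at 12.4, 11.3 and 17.0 CPM in the Baf155 ΔMF mice. Both MS15 mice were above the other 4 mice, and the log2 fold change of -0.62 (SE 0.25, adjusted p = 0.601) was -0.09 among the MS13 mice and 0.09 at its highest over the alternatives. Without MS13-3, 3 of the 16 passed the adjusted limit, beside 955 of 12288 genes tested. Among the 3 were *Hsp90aa1* (adjusted p = 0.0447, edgeR) and *Hsd11b1* (adjusted p = 0.00427, edgeR). *Ncor1*, a corepressor, had a log2 fold change of 0.22 (SE 0.09, adjusted p = 0.601) without overlap, a pattern seen in 5.2% of all genes tested in this direction. The median of the list was 0.07.

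Other genes induced by glucocorticoids were also mixed, with 25 of 27 tested and 0 past the adjusted limit with all mice. With the title prefix as a covariate 2 passed it (*Cebpd* and *Cited2*), beside 16 of 12116 genes tested. Without MS13-3 it was passed by 4 (*Cebpb*, *Cebpd*, *Errfi1* and *Per1*), beside 955 of 12288 genes tested. *Cited2*, a transcriptional coregulator, had a log2 fold change of -0.70 with all mice and -1.56 among the MS13 mice, where MS13-3 was the highest of all mice at 75.5 CPM. Of the 25, 16 had a log2 fold change below 0 and 9 above 0, with a median of -0.09. At an unadjusted p under 0.05, 5 were lower (*Cebpd*, *Errfi1*, *Ddit4*, *Cebpb* and *Sgk1*) and 1 was higher (*Dusp1*), beside 4.6% and 3.35% of all genes tested. *Cebpd*, a C/EBP transcription factor of the acute response to glucocorticoids and inflammation, had the smallest p of the list. It was at 26.7, 23.0 and 32.5 CPM in the Baf155 WT mice and at 10.3, 11.8 and 15.4 CPM in the Baf155 ΔMF mice. The lowest Baf155 WT mouse was well above the highest Baf155 ΔMF mouse, and the log2 fold change was -1.13 (SE 0.17, adjusted p = 0.0785). It was -1.27 among the MS13 mice alone, lay between -1.30 and -0.99 in the 17 alternatives and passed an adjusted p of 0.05 in 5 of them (adjusted p from 6.29e-06 to 0.488). *Cebpd* is also a known target of inflammatory signaling, so its level does not read the receptor alone.

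*Dusp1*, a phosphatase that turns off MAP kinases and a classic receptor target, lay in the other direction. Its level was 60.2, 69.2 and 62.1 CPM in the Baf155 WT mice and 72.6, 105 and 84.8 CPM in the Baf155 ΔMF mice, without overlap. The log2 fold change was 0.46 (SE 0.13, adjusted p = 0.601) and stayed between 0.30 and 0.58 in the alternatives. *Errfi1*, an inhibitor of EGF receptor signaling, was at 42.7, 48.9 and 60.1 CPM in the Baf155 WT mice and at 37.1, 40.7 and 34.3 CPM in the Baf155 ΔMF mice, a log2 fold change of -0.44 (SE 0.13, adjusted p = 0.601). It was -0.13 among the MS13 mice and passed the adjusted limit without MS13-3 (adjusted p = 0.0096, edgeR). *Ddit4*, which restrains mTORC1, *Cebpb* and the kinase gene *Sgk1* had log2 fold changes of -0.88, -0.43 and -0.26, and of -0.59, -0.26 and -0.11 among the MS13 mice. The genotypes did not overlap in *Cebpd*, *Errfi1* and *Sgk1* (lower) or in *Dusp1*, *Foxo1* and *Mstn* (higher), beside 5.57% and 5.2% of all genes tested. The atrophy gene *Fbxo32*, a ubiquitin ligase subunit, ranged from 325 to 659 CPM in Baf155 WT and from 359 to 692 CPM in Baf155 ΔMF muscle, with a log2 fold change of 0.13 (SE 0.26). *Pdk4*, which spares glucose by inhibiting pyruvate dehydrogenase, had a log2 fold change of 0.31 (SE 0.29), and it ranged from 236 to 676 CPM within Baf155 ΔMF muscle alone. The estimates of the glucocorticoid targets thus lay on both sides of 0, among the first 9 and in this wider list, and levels of the hormone itself were not analysed here.

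**Figure D4:**
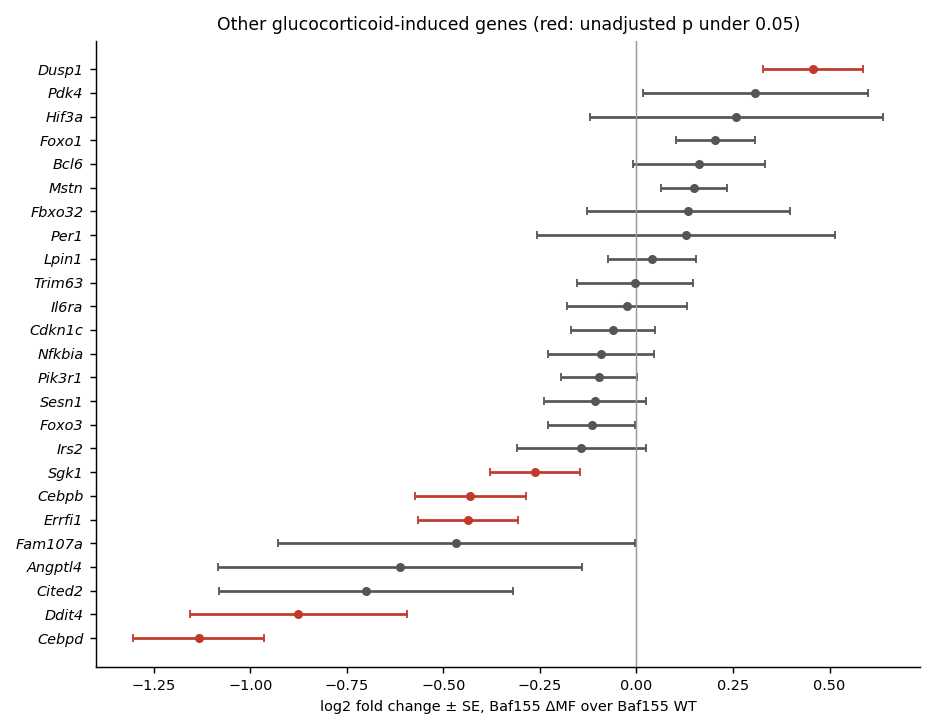
Log2 fold change ± SE of the 25 tested genes of the wider list of glucocorticoid-induced genes, Baf155 ΔMF over Baf155 WT, with genes at an unadjusted p under 0.05 in red. *Cebpd* at -1.13 and *Dusp1* at 0.46 are the ends of the range.

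Genes that glucocorticoids repress were mostly too low to test, with 3 of 10 passing the filter. *Nos2*, the inducible nitric oxide synthase, had a log2 fold change of 0.90 (0.45 among the MS13 mice), the adhesion molecule gene *Icam1* was at -0.53 (-0.35) and *Vcam1* was at 0.30 (0.63). None passed the adjusted limit. *Nos2* (higher) and *Icam1* (lower) were past an unadjusted p of 0.05, beside 3.35% and 4.6% of all genes tested. The other genes of the metal response gave a comparison for the metallothioneins, with 5 of 8 tested. Here 0 passed the adjusted limit and the median was 0.06. *Slc30a1*, a zinc exporter that MTF1 is known to induce together with the metallothioneins, had a log2 fold change of 0.39 (SE 0.16, unadjusted p = 0.0346, adjusted p = 0.602, edgeR), opposite in sign to *Mt1*. It was 0.06 among the MS13 mice, lay between 0.06 and 0.57 in the 17 alternatives and passed the adjusted limit without MS13-3 (adjusted p = 0.0308, edgeR), so its size rested on the MS15 mice. *Mtf1* itself was at 0.06, *Slc30a5* at 0.22 and *Slc39a10* at -0.09.

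For *Cdkn1a*, 13 other genes of the p53 response were tested, and 0 passed the adjusted limit. Their median was -0.01, with 7 below 0 and 6 above 0. *Btg2*, an antiproliferative gene, was the one past an unadjusted p of 0.05, beside 4.6% of all genes tested in this direction. Its log2 fold change was -0.53 (SE 0.18, adjusted p = 0.601). *Gadd45a* (-0.29), *Phlda3* (-0.14), *Ccng1* (0.11) and *Sesn2* (0.53) were on both sides of 0, and *Sesn2* and *Bax* did not overlap between genotypes, with higher values in Baf155 ΔMF muscle, beside 5.2% of all genes tested in this direction. Among the MS13 mice, *Gadd45a* was at -0.03 and *Sesn2* at 0.20. For *Glul*, 15 of 16 genes of glutamine and amino acid breakdown were tested, with 0 past the adjusted limit and a median of 0.01. *Slc38a2*, a glutamine transporter, was at 218, 198 and 202 CPM in the Baf155 WT mice and at 161, 161 and 191 CPM in the Baf155 ΔMF mice, without overlap, a log2 fold change of -0.27 (SE 0.10, adjusted p = 0.601). *Prodh*, which starts proline breakdown, was at -0.29 (-0.15 among the MS13 mice) and also did not overlap. This pattern was seen in 5.57% of all genes tested in this direction. Of the 15, *Slc38a2* was the one past an unadjusted p of 0.05 with edgeR, beside 4.6% of all genes tested in this direction. The transaminase genes *Gpt2*, *Got1* and *Got2* had log2 fold changes of -0.15, -0.04 and 0.13.

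Several cell type markers and clock genes followed the MS15 prefix, and their part in the values of the 10 transcripts was not tested. The summed level of 5 leukocyte markers was 76.5, 223 and 177 CPM in the Baf155 WT mice and 72.6, 73.1 and 118 CPM in the Baf155 ΔMF mice, so MS13-3 lay with the Baf155 ΔMF mice. All 5 (*Ptprc*, *Adgre1*, *Csf1r*, *Cd68* and *Lyz2*) had an unadjusted p under 0.05 with all 6 mice, beside 4.6% of all genes tested in this direction. Their median log2 fold change was -0.88 (0.18 without the MS15 mice). The summed level of 4 adipocyte markers was 32.7, 72.8 and 60.0 CPM and 38.4, 29.5 and 43.7 CPM, with a median log2 fold change of -0.49 (0.05 without the MS15 mice). *Mt1*, *Mt2* and *Hsd11b1*, like these marker lists, were higher in both MS15 mice than in the other mice, MS13-3 included. *Tsc22d3*, *Cdkn1a*, *Glul* and *Cebpd* in MS13-3 were within the range of the MS15 mice.

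The 9 clock genes had a summed level of 544, 376 and 320 CPM in the Baf155 WT mice and 593, 575 and 558 CPM in the Baf155 ΔMF mice. *Dbp*, a clock output gene with a steep daily rhythm, was at 61.8, 15.5 and 12.1 CPM in the Baf155 WT mice and at 69.2, 68.0 and 84.7 CPM in the Baf155 ΔMF mice. Its log2 fold change was 1.33 with all mice (SE 0.45, adjusted p = 0.601) and 0.15 among the MS13 mice alone. *Per3* and *Nr1d2* had log2 fold changes of 0.74 and 0.54, and of -0.01 and 0.03 among the MS13 mice. *Clock* was at 0.10 and 0.25. Of the 9 clock genes, 6 had a log2 fold change above 0 and 3 below 0. The 3 were *Npas2*, *Arntl* and *Cry1*, at -0.88, -0.68 and -0.30, and at 0.89, 0.52 and -0.12 among the MS13 mice. The summed level thus adds genes that differed in opposite directions. Glucocorticoid levels follow a daily rhythm as well, and the time of day at which each mouse was sampled was not analysed here. *Per1*, a clock gene that the receptor induces, was at 49.0, 11.6 and 22.0 CPM and at 23.2, 35.1 and 31.1 CPM, a log2 fold change of 0.13 (SE 0.39) with all mice and -0.75 among the MS13 mice. *Klf9* and *Klf15*, whose transcripts have a daily rhythm in several tissues, were highest in MS13-3 as *Per1* was.

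**Figure D5:**
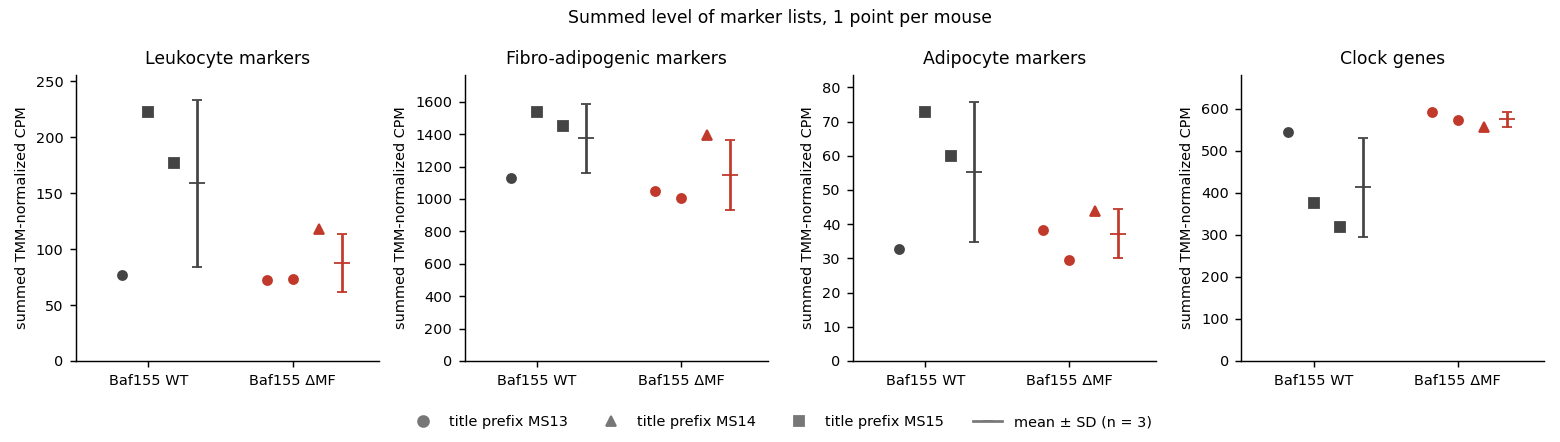
Summed TMM-normalized CPM of leukocyte, fibro-adipogenic and adipocyte markers and of clock genes in each mouse, with the mean ± SD of 3 mice. The MS15 mice have the highest leukocyte sums (177 and 223 CPM) and the lowest clock sums (320 and 376 CPM).

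The labelled tissue was checked with 9 muscle fiber markers, which summed to between 168335 and 211318 CPM in each mouse and had a median log2 fold change of 0.01. *Ttn*, the highest of them, had a log2 fold change of 0.43 (SE 0.25), which was -0.02 among the MS13 mice and ran from -0.13 to 0.81 over the alternatives. Of these markers, *Myh1* and *Myh2* were past an unadjusted p of 0.05 in the higher direction, at log2 fold changes of 0.49 and 0.38 (0.29 and 0.07 among the MS13 mice). Of the 9, 5 were above 0 and 4 below 0, among them *Ckm* at -0.20 (-0.06 among the MS13 mice). The genotypes did not overlap in *Myh1* (higher) and *Ckm* (lower), beside 5.2% and 5.57% of all genes tested. The 5 tested blood markers had a median of -0.70 (*Hbb-bs* at -0.70), the 4 endothelial markers 0.31 (*Pecam1* at 0.32), the 4 fibro-adipogenic markers -0.30 (*Dcn* at -0.43), the 2 satellite cell markers -0.06 (*Pax7* at -0.07), the 3 Schwann cell markers 0.15 (*Mbp* at 0.04) and the 2 mural cell markers 0.22 (*Rgs5* at 0.32). Of the 4 fibro-adipogenic markers, 3 were below 0 and 1 was above 0. The latter was *Col1a1* at 0.36 (-0.16 among the MS13 mice). Without the MS15 mice, the endothelial median was 0.04, the fibro-adipogenic median 0.08, the mural median 0.02, the Schwann cell median -0.21 and the blood median -0.49. With all mice, 0 of the 38 marker genes tested passed the adjusted limit with edgeR and 15 had an unadjusted p under 0.05, beside 7.95% of all genes tested. Without MS13-3, 18 of the 38 passed the adjusted limit, among them all 5 leukocyte markers, beside 955 of 12288 genes tested.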

How the data were processed

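RNA-seq of whole hind limb muscle from 3 Baf155 WT and 3 Baf155 ΔMF mice was used, with 1 stranded total RNA library per mouse and groups taken from the labels. The deposited values are estimated counts per gene and mouse, not normalized by the authors. The submitters' processing notes name CASAVA 1.8.2, cutadapt 1.10, Bowtie2 2.2.7, TopHat2 2.1.1, RSEM 1.2.30 and limma, with the build mm10/GRCm38, and the role of each tool is not given in the sources used here. The estimates were rounded, and edgeR 4.0.16 was run in R 4.3.3. Genes were filtered by filterByExpr (minimum count 10, minimum total 15), libraries were scaled by TMM (factors 0.958 to 1.05), and the quasi-likelihood test was used without a covariate, adjusted by the Benjamini-Hochberg method over 12116 genes. The SE of a log2 fold change is its size divided by the square root of F. CPM are TMM-normalized, and the common biological coefficient of variation was 0.111. A floor of 3 counts was 0.230 to 0.351 CPM and covers counting error only. Marker sums are sums of CPM. Pairs of mice of a genotype differed beyond sampling noise (chi-square per degree of freedom 3.77 to 38.8).

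Gene positions and exon lengths (the union of exons) came from GENCODE M21 on GRCm38. Promoters came from RefSeq on GRCm38.p6, where 11 promoters of 8 of the 10 genes were used. Promoters of the 10 genes on chromosome 18, where *Nr3c1* lies, were left out of the search. No promoter was matched for *Zbtb16*. Alternatives were 3 other scalings, 2 other filters, DESeq2 1.42.0, limma 3.58.1 with voom, a robust fit, unrounded estimates, the title prefix as a covariate, leaving out each mouse, the MS13 mice alone and an adjusted p under 0.1. Leaving out both MS15 mice was added after seeing the data.

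The 10 genes and all gene lists were chosen with earlier results of these data known. Named genes were the 10, *Smarcc1*, list genes with an adjusted p under 0.05, the 3 smallest p and 2 highest levels of each pathway list, the highest gene of each marker list and the 3 nearest profiles. *Ddit4*, *Cebpb*, *Sgk1*, *Foxo1*, *Mstn*, *Cited2*, *Per1*, *Bax*, *Myh1*, *Myh2* and the leukocyte markers other than *Lyz2* were named after their values were seen. The comparison was tested on simulated data with known changes.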

Additional observations from a re-analysis of the deposited data

How the results depend on the processing

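No paired analysis was possible because the labels give the genotypes no common replicate numbers. The title prefix is shared by 3 mice only (MS13), and a fit with it as a covariate is given instead. The number of the 10 transcripts with an adjusted p under 0.05 was 0 in every alternative except that without MS13-3, where it was 1 (*Mt2*), so it ranged from 0 to 1 when each mouse was left out. The count over all genes, 3 with all mice, was 0 to 955 when each mouse was left out (955 without MS13-3 and 0 without MS15-2 or MS13-2), 17 with no filter on low counts, 23 with DESeq2, 5 with limma-voom, 16 with the title prefix as a covariate, 16 without both MS15 mice and 8 at an adjusted p under 0.1. For *Smarcc1*, the log2 fold change was -1.59 to -1.36 when each mouse was left out, and its adjusted p was over 0.05 in 3 of these fits (0.0616 without MS15-2, 0.0533 without MS13-1 and 0.0678 without MS13-2). With library size only, *Nr3c1* (-0.016), *Klf9* (-0.0074) and *Klf15* (-0.039) took the other sign. With the title prefix as a covariate, *Nr3c1* (-0.0026), *Zbtb16* (-0.024), *Klf9* (-0.092), *Klf15* (-0.24) and *Mt2* (0.0011) did so, and without both MS15 mice, *Nr3c1* (-0.048), *Klf9* (-0.15), *Klf15* (-0.36) and *Mt2* (0.34). When each mouse was left out, the ranges were -0.035 to 0.095 for *Nr3c1*, -0.026 to 0.22 for *Fkbp5*, -0.012 to 0.16 for *Klf9* and -0.16 to 0.25 for *Klf15*. *Tsc22d3*, *Mt1*, *Cdkn1a* and *Glul* kept a log2 fold change below 0 in all 17 alternatives. *Mt2* was not tested where 10 counts were required in every mouse. The cause of these shifts was not tested. *Mt2* rests on as few as 8 counts in a mouse and *Cdkn1a* on 19, so their values are coarse at this depth.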
